A study of Mus musculus with 24 samples.

Results

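The complement components measured here were *C1qa*, *C1qb*, *C1qc*, *C4b*, *Cfb*, *C3*, *C3ar1*, *C5ar1* and *Serping1*, taken as every non-control probe whose gene name on the array was one of these symbols. They were 9 genes with 11 probes, among 27398 gene names and 41174 probes. Levels were followed in dorsal root ganglia (DRGs) of *Nfil3* KO and WT mice, on the non-injured side (control) and on the side of a sciatic nerve lesion made 2 or 5 days earlier. There were 24 samples in 6 groups of 4, all from adult male mice whose nerve was transected and sutured, and the KO mice were germline nulls compared with WT littermates. *Nfil3* lox mice had been crossed with CMV-Cre mice and backcrossed to C57BL/6J, so the gene was missing in all cells and not only in neurons. Their exact ages were not used here, and the labels do not tie a control ganglion to the lesioned ganglion of an animal.

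Complement is a set of secreted proteins that mark cells and debris for removal. C1q, a protein built from A, B and C chains, starts the classical pathway by binding its target, C4 and C2 then form the enzyme that cuts C3, and factor B forms the C3-cutting enzyme of the alternative pathway. Fragments of C3 and C5 attract and activate myeloid cells through the receptors C3AR1 and C5AR1, and the inhibitor SERPING1 (C1 inhibitor) blocks the proteases of the C1 complex. In injured nervous tissue C1q is known mainly as a product of macrophages and microglia.

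*C1qa*, *C1qb*, *C1qc*, *C3*, *C4b* and *C3ar1* rose after the lesion by day 5 in both genotypes, and *Cfb*, *C5ar1* and *Serping1* passed in no lesion comparison. The C1q genes rose 4.29- to 4.66-fold by day 5 in WT DRGs. The mean of *C3* was highest at day 2, but its difference from day 2 to day 5 did not pass in either genotype. No member passed the test between genotypes at any time point. All values are log2 of background-corrected, quantile-normalized intensity, and a member is represented by its brightest probe unless another is named. A value of 1 on this scale is a doubling, and tests are from limma over all probes with Benjamini-Hochberg adjustment and a threshold of 0.05.

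The labels held for the gene that was deleted. *Nfil3* measured 8.44 to 9.01 in WT control DRGs and 10.34 to 11.09 in lesioned WT DRGs, and 2.82 to 7.59 in the KO samples, of which 5 of 12 were well above background. The highest KO value was that of KO control replicate 4, for which 1 label field gives day 5 and the title and source day 0. *Atf3*, a lesion-induced transcription factor, measured 12.94 or more in every lesioned sample and 9.98 or less in every control, and *Sprr1a*, another lesion-induced gene, 12.60 or more against 11.68 or less. Among the controls, *Atf3* was higher in those that shared an array with a lesioned sample (9.04 to 9.98, n = 4) than in those that shared it with another control (7.25 to 7.69, n = 4). *Sprr1a* was further apart, at 8.15 to 11.68 in the former and 5.48 to 6.12 in the latter. The part of this sharing in the results was not tested beyond the fits without those 4 controls given below. The share of probes well above background ran from 54.5 to 72.3% per sample, and saturated spots were absent (0).

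The sample label reads DRG neurons, but the ganglia were frozen whole, and markers of other cell types were measured. All 11 neuron markers, all 6 satellite glia markers and all 7 Schwann cell markers on the fixed lists were well above background in all 24 samples, as were 15 of 16 macrophage markers. In such bulk samples more cells of a type and more RNA per cell cannot be told apart.

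**Figure D1:**
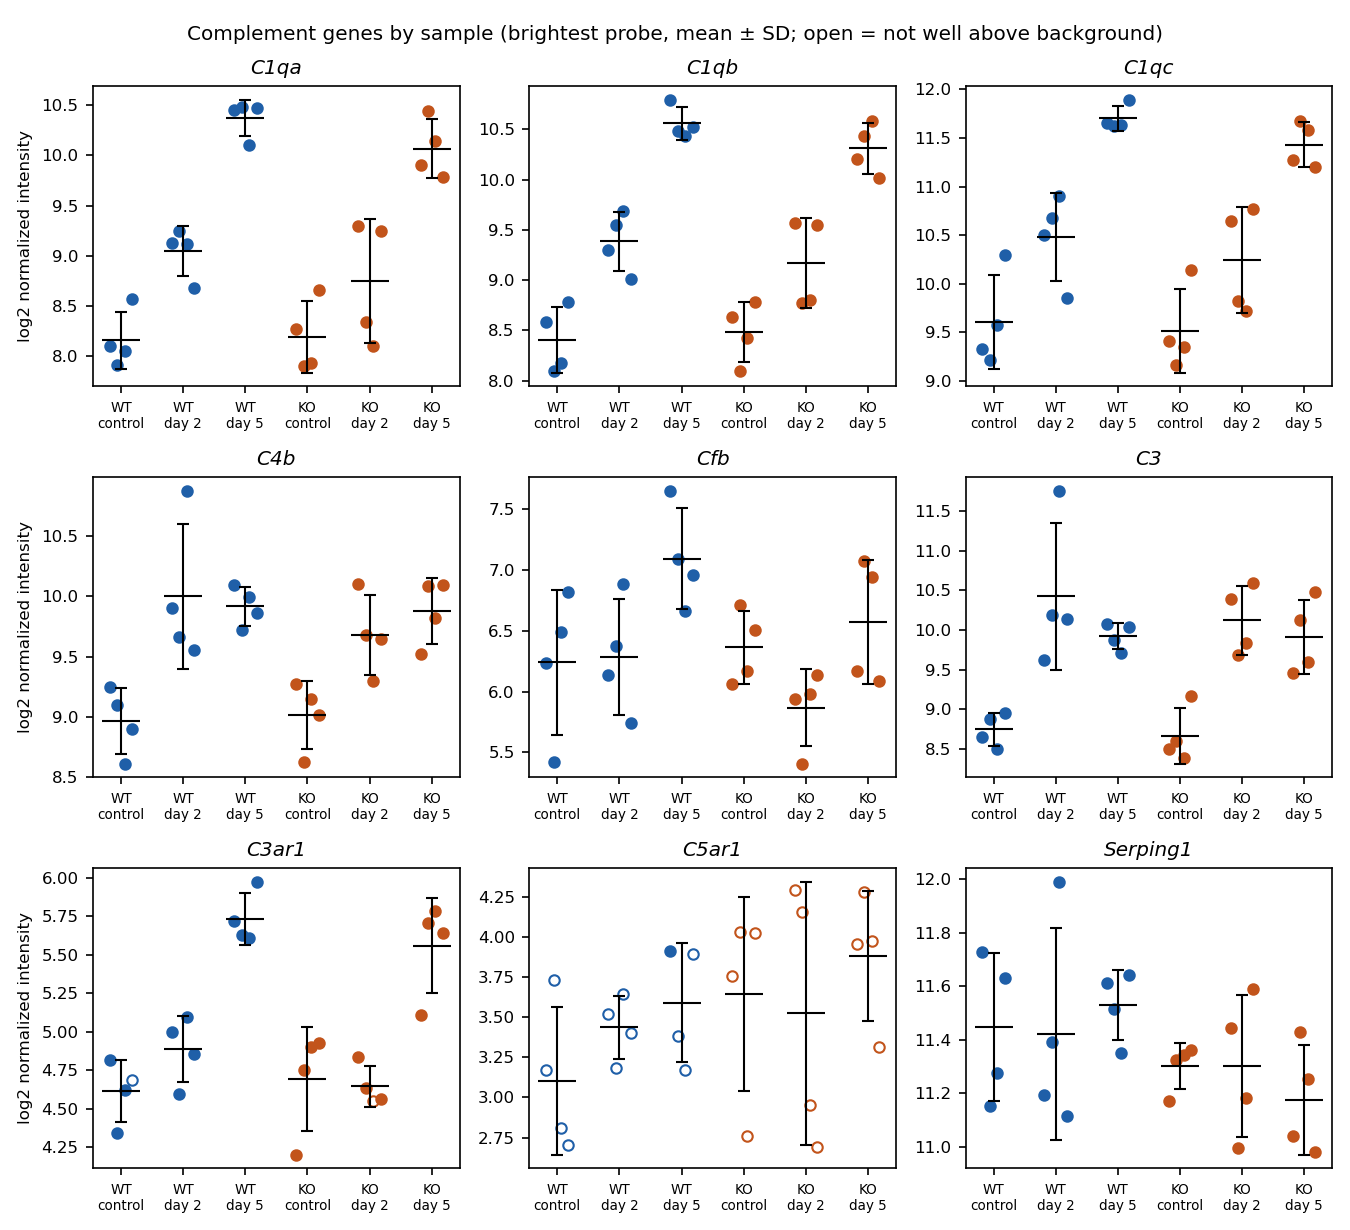
Log2 normalized intensity (y axis) of the brightest probe of each of the 9 genes in the 6 groups (x axis). Each point is 1 of 4 samples per group, horizontal marks are means, bars are SD, and open points were not well above background. The 4 day 5 samples of each genotype lie above its 4 controls for *C1qa*, *C1qb*, *C1qc*, *C4b*, *C3* and *C3ar1*, whereas the groups overlap for *Serping1*. Each panel has its own y axis.

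At day 2 in WT DRGs 4 of the 9 members rose and none fell (*C1qa*, *C1qb*, *C3* and *C4b*), where 5.23% of all genes were called higher. At day 5 in WT 6 of 9 rose, with *C1qc* and *C3ar1* added, against 6.41% of all genes. In KO DRGs 2 of 9 rose at day 2 (*C1qb* and *C3*), against 5.5% of all genes, and at day 5 the same 6 as in WT rose, against 6.06%. The median change of the 9 members was 0.88 at day 2 and 1.12 at day 5 in WT and 0.56 and 0.87 in KO, while the median over all genes lay between -0.03 and -0.01. All 4 lesioned samples exceeded all 4 controls for 4 members at day 2 and 6 at day 5 in WT, where this held for 7.29 and 8.91% of all genes. In KO it held for 2 members at day 2 (*C3* and *C4b*) and 6 at day 5, against 6.83 and 9.15%. Without the 4 controls on an array with a lesioned sample, a choice made after seeing the data, the counts were 2 and 4 in WT and 2 and 4 in KO at day 2 and day 5. That fit left 2 controls per genotype. The differences called with all controls were larger in it, such as 1.85 for *C3* at day 2 in WT. The exception was *C3ar1* at day 5, at 1.01 in WT and 0.73 in KO. Without KO control replicate 4 they were 3 and 6 in KO. At day 2 in KO the count was 1 without KO control replicate 1, 2 or 3 or KO day 2 replicate 1 or 4, and 5 without KO day 2 replicate 3.

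**Figure D2:**
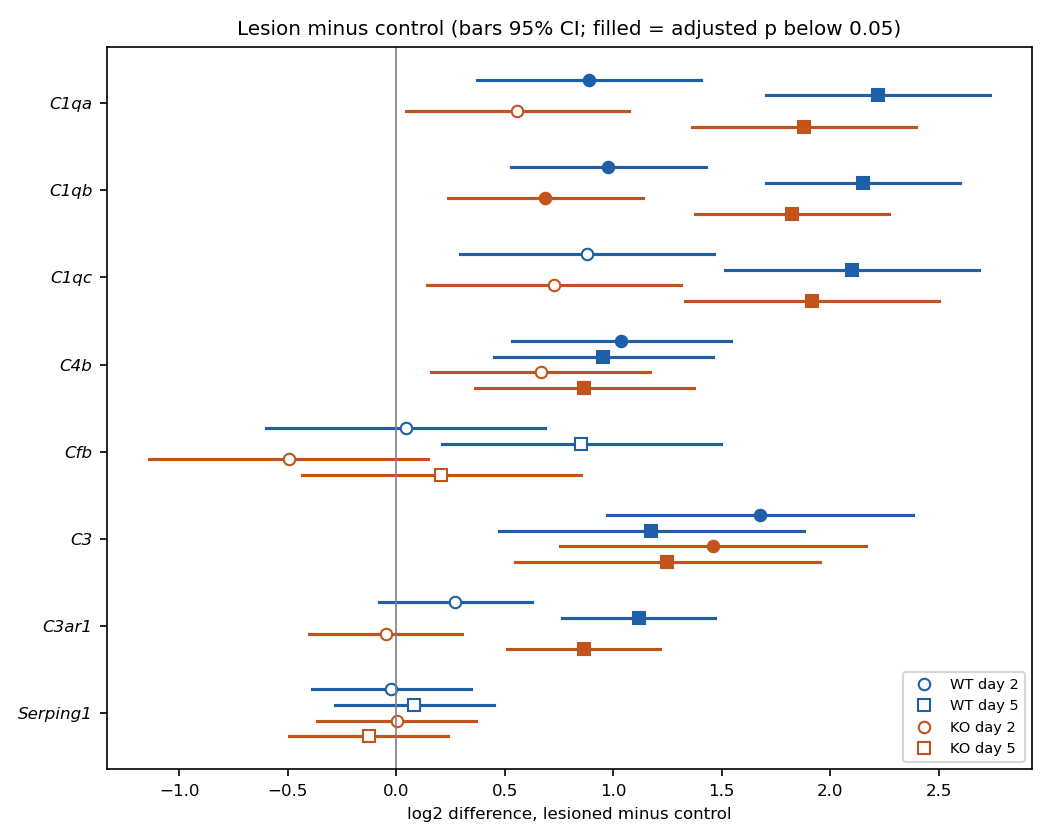
Difference in log2 intensity between lesioned and control DRGs (x axis) for 8 members (y axis), with circles for day 2 and squares for day 5, WT in blue and KO in orange. Bars are 95% confidence intervals and filled symbols passed an adjusted p of 0.05. The C1q genes lie near 2 at day 5 in both genotypes, and *Serping1* lies near 0 throughout. *C5ar1* is left out because it was near background.

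The C1q chains were each measured by 1 probe that was well above background in all 24 samples. On the mm9 mouse genome, the build of the array annotation, the probes lie on chromosome 4 on the minus strand, for *C1qa* at chr4:136452409-136452468, for *C1qb* at chr4:136436578-136436637 and for *C1qc* at chr4:136445766-136445825. The 3 genes are neighbours in this order on the chromosome: *C1qb*, *C1qc*, *C1qa*. Exons and UTRs were not assigned to these coordinates, because no annotation of that build was used here. The bases before the start sites of *C1qb* and *C1qc* are shown because these genes moved together. They are the 250 bases upstream in RefSeq on GRCm38.p6, at chr4:136886201-136886450 and chr4:136892915-136893164, both for the minus strand and read 5′ to 3′ towards the gene. For *C1qc* the start site of the promoter table lies inside the gene, whose annotated span reaches 136892936, so its window takes in the first bases of that span and positions are counted from the start site of the promoter table. Capitals mark AGGAAGT on the opposite strand, the core letters bound by ETS factors, a family that includes PU.1 of myeloid cells.

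C1qb: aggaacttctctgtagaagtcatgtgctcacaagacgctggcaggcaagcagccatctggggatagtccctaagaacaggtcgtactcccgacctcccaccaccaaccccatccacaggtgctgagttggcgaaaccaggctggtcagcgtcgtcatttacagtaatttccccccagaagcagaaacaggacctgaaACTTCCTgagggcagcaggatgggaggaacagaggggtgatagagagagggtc

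C1qc: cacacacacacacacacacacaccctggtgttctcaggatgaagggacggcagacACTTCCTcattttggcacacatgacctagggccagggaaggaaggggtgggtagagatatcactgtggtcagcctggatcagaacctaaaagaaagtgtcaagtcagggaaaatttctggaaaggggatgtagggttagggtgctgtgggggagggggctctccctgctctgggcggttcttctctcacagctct

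The match begins at position -53 in *C1qb* and -195 in *C1qc*, where -1 is the base before the start site. On either strand AGGAAGT was found in 7.69% of 32851 mouse promoters of this length. Of the 9 members, 5 have an entry in the promoter table (*C1qb*, *C1qc*, *C3*, *C3ar1* and *C5ar1*). AGGAAGT was found in 3 of these, *C1qb*, *C1qc* and *C5ar1*, the last of which was near background and passed in no comparison. *C3* and *C3ar1*, which rose, hold no match to it. None of the 5 holds TTATGTAA or TTACGTAA, letters of the NFIL3 site, which occur in 0.819 and 0.113% of all promoters. These are matches of letters in a short window and were not measured as binding. The motifs were chosen after the sequences were seen, so setting members beside all promoters is no test of enrichment.

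*C1qa* encodes the A chain. In WT control DRGs it measured 8.10, 7.91, 8.05 and 8.56, at day 2 it measured 9.13, 9.25, 9.12 and 8.68, and at day 5 it measured 10.45, 10.48, 10.11 and 10.47 (replicates 1 to 4). All day 2 values were above the controls and all day 5 values above those of day 2. In KO DRGs the controls measured 8.27, 7.90, 7.93 and 8.66, the day 2 samples 9.30, 8.34, 8.10 and 9.25, and the day 5 samples 9.90, 10.44, 10.15 and 9.78. At day 2 the KO samples split, with replicates 2 and 3 inside the range of the controls and replicates 1 and 4 above it. Replicates 1 and 4 shared their arrays with a sample of the same time point and replicates 2 and 3 did not, and the part of this in the split was not tested. The rise in WT was 0.89 ± 0.25 (SE, n = 4) at day 2 (1.85-fold, adjusted p = 0.0247) and 2.22 ± 0.25 at day 5 (4.66-fold, adjusted p = 2.61e-06). In KO the difference was 0.56 at day 2, which did not pass (adjusted p = 0.17), and 1.88 at day 5 (3.68-fold, adjusted p = 2.46e-05). The WT day 2 call was lost when any of replicates 1, 2 and 3 of the WT controls or of the WT day 2 samples was left out, with differences of 0.81 to 0.87 and adjusted p of 0.0552 to 0.0784.

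*C1qb* encodes the B chain and rose at both time points in both genotypes. Its WT controls measured 8.58, 8.09, 8.18 and 8.78, its WT day 2 samples 9.30, 9.55, 9.68 and 9.02, and its WT day 5 samples 10.79, 10.49, 10.43 and 10.53. Again the 3 WT groups did not overlap. Controls of KO mice measured 8.64, 8.09, 8.42 and 8.79, the KO day 2 samples 9.56, 8.77, 8.80 and 9.55, and the KO day 5 samples 10.20, 10.43, 10.58 and 10.02. KO day 2 replicate 2 lay just below the highest KO control. The rise was 0.98 at day 2 (1.97-fold, adjusted p = 0.00518) and 2.15 at day 5 (4.44-fold, adjusted p = 6.15e-07) in WT. In KO it was 0.69 (adjusted p = 0.0447) and 1.82 (3.54-fold, adjusted p = 6.18e-06), with an SE of 0.21 in each comparison. The KO day 2 call was lost with slide as a block (0.70, adjusted p = 0.0506) and without KO control replicate 1, 2 or 3 or KO day 2 replicate 1 or 4 (0.56 to 0.74, adjusted p = 0.0589 to 0.162).

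*C1qc* encodes the C chain. The WT controls measured 9.33, 9.21, 9.57 and 10.29, the WT day 2 samples 10.50, 10.68, 10.90 and 9.85, and the WT day 5 samples 11.66, 11.62, 11.63 and 11.895. WT control replicate 4 was above WT day 2 replicate 4, so these groups overlapped. The KO controls measured 9.41, 9.16, 9.35 and 10.14, the KO day 2 samples 10.65, 9.82, 9.72 and 10.77, and the KO day 5 samples 11.27, 11.67, 11.58 and 11.20. In both genotypes the day 5 samples lay above all others. The difference at day 2 was 0.88 ± 0.28 in WT, at the threshold without passing it (adjusted p = 0.0514), and 0.73 in KO (adjusted p = 0.108). It passed in WT at day 2 under 8 alternatives, among them a fit without WT control replicate 4 (1.11, adjusted p = 0.0143) and 1 without WT day 2 replicate 4 (1.09, adjusted p = 0.0178). In KO at day 2 it passed without KO day 2 replicate 3 (0.90, adjusted p = 0.0446) or KO control replicate 4 (0.94, adjusted p = 0.0452). At day 5 the rise was 2.10 in WT (4.29-fold, adjusted p = 2.71e-05) and 1.92 in KO (3.77-fold, adjusted p = 8.66e-05).

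From day 2 to day 5, 3 of 9 members rose in WT (*C1qa*, *C1qb* and *C3ar1*) and 4 of 9 in KO (these and *C1qc*), where 0.558 and 0.752% of all genes were called higher. The further rise in WT was 1.33 for *C1qa* (adjusted p = 0.0118), 1.17 for *C1qb* (adjusted p = 0.011) and 1.22 for *C1qc*, just short of the threshold (adjusted p = 0.051). In KO it was 1.32 for *C1qa* (adjusted p = 0.00934), 1.14 for *C1qb* (adjusted p = 0.0102) and 1.19 for *C1qc* (adjusted p = 0.0497). The WT count fell to 0 without WT day 5 replicate 1 or WT day 2 replicate 4. The KO count fell to 2 without KO day 5 replicate 2 or 3 or KO day 2 replicate 2, and *C1qc* in KO lost its call with replicate number or array partner as a block (adjusted p = 0.0653 and 0.0571). Without WT day 2 replicate 3 *C1qc* passed in WT (1.36, adjusted p = 0.0396).

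The C1q genes also moved together from sample to sample within groups. Over the 24 deviations from the group means, the Pearson r was 0.87 for *C1qa* with *C1qb*, 0.90 for *C1qa* with *C1qc* and 0.85 for *C1qb* with *C1qc*. Between a C1q gene and *Serping1* it was 0.59 to 0.75, with *Cfb* 0.52 to 0.61, with *C3* 0.40 to 0.52, with *C4b* 0.32 to 0.50 and with *C3ar1* 0.24 to 0.33. The pair *Cfb* and *Serping1* reached 0.76, so joint movement within groups was not limited to the C1q genes. Samples on 1 array share a hybridization, and these correlations are descriptions. Among 21529 probes well above background in all samples, the genes whose levels followed *C1qa* most closely over the 24 samples were *C1qb*, *C1qc* and *Fcgr1* (r = 0.983, 0.983 and 0.978). For *C1qb* they were *C1qa*, *Fcgr3* and *Fcgr1* (r = 0.983, 0.982 and 0.981), and for *C1qc* *Fcgr3*, *Fcgr1* and *C1qa* (r = 0.987, 0.984 and 0.983). *Fcgr1* and *Fcgr3* encode receptors for the constant part of IgG.

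Macrophage markers moved beside the C1q genes. Of 16 markers, among them *Csf1r*, *Aif1*, *Cx3cr1* and *Trem2*, 7 rose at day 2 and 15 at day 5 in WT, with median changes of 0.61 and 1.73. In KO 3 rose at day 2 and all 16 at day 5, with medians of 0.44 and 1.57. Of all genes, 5.23 and 6.41% were called higher at day 2 and day 5 in WT, and 5.5 and 6.06% in KO. *Cybb* in WT at day 5, at 0.74 (adjusted p = 0.0923), was the 1 marker that did not pass. Their summed linear intensity ran from 9735 to 15804 in WT controls, 13131 to 26219 at day 2 and 32452 to 43114 at day 5. In KO it ran from 10910 to 14759, 8634 to 19507 and 29104 to 39319. No marker of the list was at background in all samples, and the part of macrophage content in the C1q values was not tested. None of 8 neutrophil markers and none of 9 lymphocyte markers passed in a lesion comparison, although the neutrophil median was 1.35 at day 5 in KO and 0.48 in WT.

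**Figure D3:**
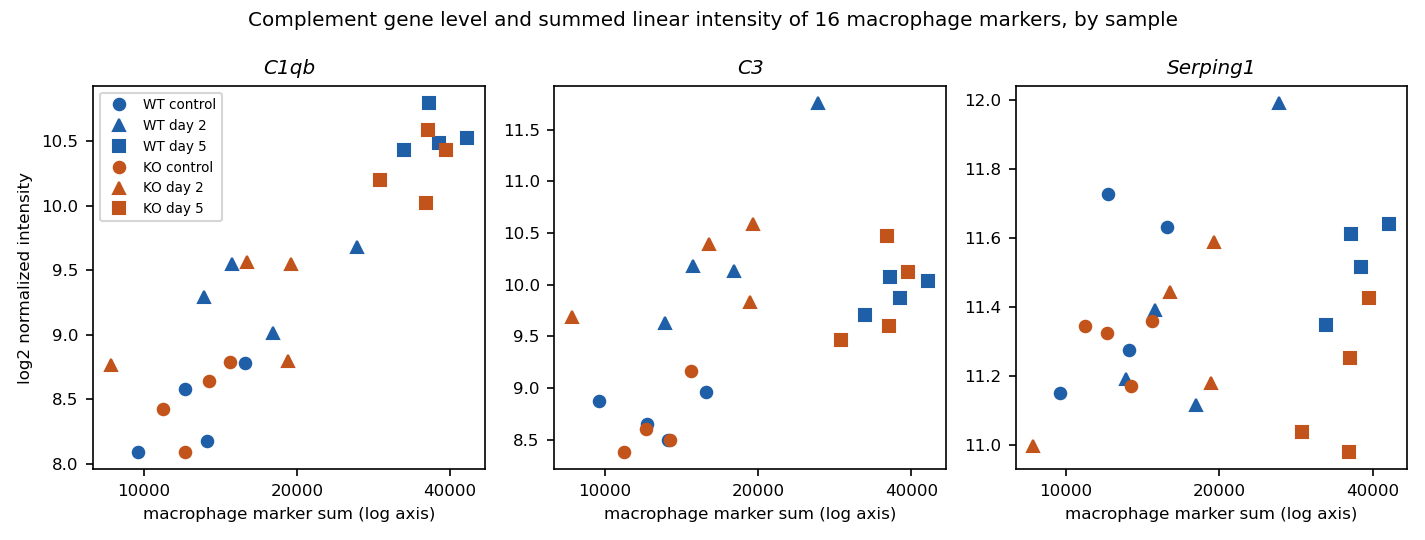
Log2 normalized intensity (y axis) of *C1qb*, *C3* and *Serping1* against the summed linear intensity of 16 macrophage markers (x axis, log scale), with 1 point per sample, WT in blue, KO in orange, circles for controls, triangles for day 2 and squares for day 5. The day 5 samples, with marker sums of 29104 to 43114, have the highest *C1qb* values, while the highest *C3* and *Serping1* points belong to WT day 2 replicate 3.

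*C4b* encodes the C4 protein of the classical and lectin pathways. Its probe at chr17:34866361-34866420 (mm9, minus strand) also lists the transcript of *C4a*, its near-identical neighbour, so this probe cannot tell the signal of these genes apart. RefSeq lists *C4a* as a transcribed pseudogene. A separate probe of *C4a* was well above background in 5 of 24 samples and passed in no comparison. The shared probe is printed here, in lower case.

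C4b: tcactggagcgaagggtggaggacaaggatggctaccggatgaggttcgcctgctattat

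The WT controls measured 9.25, 9.10, 8.61 and 8.90, the WT day 2 samples 9.91, 9.66, 10.88 and 9.56, and the WT day 5 samples 10.09, 9.72, 10.00 and 9.87. Both lesioned WT groups lay wholly above the controls and overlapped each other. The KO controls measured 9.28, 8.62, 9.15 and 9.02, the KO day 2 samples 10.11, 9.68, 9.30 and 9.64, and the KO day 5 samples 9.52, 10.09, 9.82 and 10.09. KO day 2 replicate 3 was barely above the highest KO control. *C4b* rose by 1.04 ± 0.24 at day 2 (2.05-fold, adjusted p = 0.00787) and 0.95 at day 5 (1.94-fold, adjusted p = 0.0108) in WT. In KO the difference was 0.67 at day 2 (adjusted p = 0.0857) and 0.87 at day 5 (1.82-fold, adjusted p = 0.0225). The day 2 difference in KO passed without KO day 2 replicate 3 (0.79, adjusted p = 0.0433). The day 5 call in KO was lost without KO control replicate 2 or KO day 5 replicate 2 or 4 (0.73 to 0.80, adjusted p = 0.0697 to 0.082). Without the 4 controls on an array with a lesioned sample the differences were 1.07 and 0.99 in WT and 1.00 at day 5 in KO, and none of the 3 passed (adjusted p = 0.071, 0.0827 and 0.0874). The genes closest to *C4b* over the samples were *Pak2*, *Frmd8* and *Mtap4* (r = 0.920, 0.913 and 0.912).

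*Cfb* encodes factor B of the alternative pathway, and its probe was well above background in all samples. The probe is placed at chr17:34993502-34993858 (mm9, minus strand), a span longer than the probe itself. Its WT controls measured 6.24, 5.42, 6.49 and 6.82, its WT day 2 samples 6.14, 6.37, 6.89 and 5.74, and its WT day 5 samples 7.65, 7.09, 6.67 and 6.96. WT day 5 replicate 3 was the 1 day 5 sample inside the range of the controls. The KO controls measured 6.07, 6.71, 6.17 and 6.51, the KO day 2 samples 5.94, 5.41, 5.98 and 6.14, and the KO day 5 samples 6.17, 7.08, 6.94 and 6.09. The difference at day 5 was 0.85 ± 0.31 in WT (adjusted p = 0.0785) and 0.21 in KO (adjusted p = 0.781). At day 2 it was 0.04 in WT and -0.50 in KO (adjusted p = 0.964 and 0.357). The WT day 5 difference passed under 5 alternatives, which included normexp background correction (0.50, adjusted p = 0.0413) and a fit without WT control replicate 4 (1.04, adjusted p = 0.0387). The closest genes to *Cfb* were *Cfhr2*, a factor H-related gene, *Lsp1* and *Ptplad2* (r = 0.877, 0.865 and 0.865).

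*C3* encodes the component on which all pathways meet. Its main probe, at chr17:57343416-57343475 (mm9, minus strand), was spotted 10 times on each array and was well above background in all samples. Among the 5 members with a promoter entry, *C3* alone holds a C/EBP-like match, TTGCGNAA, in its 250 upstream bases. Of all promoters, 0.67% hold it on either strand. The match begins at position -45 and is in capitals (GRCm38.p6, chr17:57228137-57228386, minus strand, 5′ to 3′). C/EBP factors are known to drive acute phase genes, and this motif too was chosen after the sequences were seen.

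C3: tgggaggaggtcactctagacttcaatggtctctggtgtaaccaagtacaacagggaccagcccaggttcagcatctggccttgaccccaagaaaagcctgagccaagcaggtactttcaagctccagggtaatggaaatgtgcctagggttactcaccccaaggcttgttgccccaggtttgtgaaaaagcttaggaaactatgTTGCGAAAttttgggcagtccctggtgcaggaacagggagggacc

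The WT controls measured 8.65, 8.88, 8.50 and 8.96, the WT day 2 samples 9.63, 10.18, 11.75 and 10.13, and the WT day 5 samples 10.07, 9.88, 9.71 and 10.04. All lesioned samples lay above all controls, and WT day 2 replicate 3 stood far above the rest. The KO controls measured 8.50, 8.60, 8.38 and 9.17, the KO day 2 samples 10.39, 9.68, 9.83 and 10.59, and the KO day 5 samples 9.46, 10.12, 9.60 and 10.47. *C3* rose by 1.68 ± 0.34 at day 2 (3.20-fold, adjusted p = 0.0025) and 1.17 at day 5 (2.26-fold, adjusted p = 0.0236) in WT. In KO the rise was 1.46 at day 2 (2.75-fold, adjusted p = 0.00704) and 1.25 at day 5 (2.38-fold, adjusted p = 0.0181). Without WT day 2 replicate 3 the WT day 2 rise was 1.23 (adjusted p = 0.00446). That sample was the highest of its group for every member other than *C1qa*, with *C4b* at 10.88, *Cfb* at 6.89 and *Serping1* at 11.99. It also had the highest marker sums of its group for macrophages (26219), neutrophils (81541), lymphocytes (989), Schwann cells (205510), fibroblasts (80514), endothelial cells (2161), red blood cells (218940) and neurons (563370), but not for satellite glia or hepatocytes. The part of these cell types in its values was not tested.

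For *C3* no further change passed after day 2. The difference from day 2 to day 5 was -0.50 in WT (95% interval -1.21 to 0.20, adjusted p = 0.719) and -0.21 in KO (-0.91 to 0.49, adjusted p = 0.917). For *C4b* it was -0.08 and 0.20 (adjusted p = 0.964 and 0.878). Without WT day 2 replicate 3 the WT differences were -0.06 for *C3* and 0.21 for *C4b*. Whether the time course of *C3* differs from that of the C1q genes was not tested. The day 5 call of *C3* depended on single samples. In WT it was lost when replicate 1 or 3 of the controls or replicate 1 or 4 of day 5 was left out (1.09 to 1.14, adjusted p = 0.0551 to 0.0724). In KO it was lost without KO control replicate 3 or KO day 5 replicate 2 or 4 (1.06 to 1.18, adjusted p = 0.0541 to 0.0731). Without the 4 controls on an array with a lesioned sample the day 5 rise was 1.35 in WT and 1.42 in KO, and neither passed (adjusted p = 0.0827 and 0.072). The other probe of *C3*, at chr17:57364538-57364695, was well above background in 4 of 24 samples and none of its differences passed. Averaging both probes gave day 5 differences of 0.89 in WT and 0.63 in KO that did not pass (adjusted p = 0.0837 and 0.276). It also ended the KO day 2 call (0.92, adjusted p = 0.0764). The genes whose levels followed *C3* most closely were *Prr15*, *Pycard*, the adaptor of inflammasomes, and *Pros1*, which encodes the anticoagulant protein S (r = 0.945, 0.939 and 0.939).

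*C3ar1* encodes the receptor for the C3a fragment. Its brighter probe, at chr6:122798222-122798281 (mm9, minus strand), was well above background in 22 of 24 samples. The WT controls measured 4.82, 4.34, 4.62 and 4.69, the WT day 2 samples 5.00, 4.60, 5.10 and 4.86, and the WT day 5 samples 5.72, 5.63, 5.61 and 5.98. Day 2 overlapped the controls and day 5 was above both. In KO DRGs the controls measured 4.20, 4.75, 4.90 and 4.93, the KO day 2 samples 4.84, 4.63, 4.55 and 4.56, and the KO day 5 samples 5.11, 5.71, 5.78 and 5.64. *C3ar1* thus rose by day 5 only, by 1.12 ± 0.17 in WT (2.17-fold, adjusted p = 0.000114) and by 0.86 in KO (1.82-fold, adjusted p = 0.00162). The size was not well determined: over the alternatives it ran from 0.41 to 1.52 in WT and from 0.31 to 1.40 in KO. At day 2 the difference was 0.27 in WT (adjusted p = 0.39) and -0.05 in KO (adjusted p = 0.909). From day 2 to day 5 it rose by 0.85 in WT (adjusted p = 0.0224) and 0.91 in KO (adjusted p = 0.00867). The WT call was lost without WT day 5 replicate 1 or 4 or WT day 2 replicate 2 or 4 (0.75 to 0.85, adjusted p = 0.0677 to 0.0864). The other probe, at chr6:122798696-122798755, was well above background in 4 samples and passed in no comparison. With both probes averaged the KO rise at day 5 was 0.54 and the WT rise from day 2 to day 5 was 0.59, and neither passed (adjusted p = 0.0582 and 0.203). The closest genes were *Unc93b1*, *Csf1r*, the receptor for the macrophage growth factor CSF1, and *Adap2* (r = 0.938, 0.936 and 0.929).

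*C5ar1*, the receptor for C5a, was near background: its probe at chr7:16833871-16833930 (mm9, minus strand) was well above background in 1 of 24 samples, WT day 5 replicate 1. Its values ran from 2.69 to 4.29 over all samples and no fold change is given. Neutrophils and monocytes are known to carry this receptor at high levels.

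*Serping1* encodes the C1 inhibitor. Its probe, at chr2:84605968-84607474 (mm9, minus strand), was well above background in all samples, and the groups overlapped throughout. The WT controls measured 11.73, 11.15, 11.28 and 11.63, the WT day 2 samples 11.19, 11.39, 11.99 and 11.12, and the WT day 5 samples 11.61, 11.52, 11.35 and 11.64. The KO controls measured 11.17, 11.33, 11.34 and 11.36, the KO day 2 samples 11.44, 11.00, 11.18 and 11.59, and the KO day 5 samples 11.04, 11.43, 11.25 and 10.98. The difference at day 5 was 0.08 in WT (95% interval -0.28 to 0.45) and -0.13 in KO (-0.49 to 0.24). At day 2 it was -0.02 in WT (-0.39 to 0.34) and 0.00 in KO (-0.36 to 0.37), so changes of the size seen for the C1q genes at day 5 lie outside these intervals. The closest genes were *Crtap*, *Cav1* and *Ctdsp2* (r = 0.838, 0.837 and 0.827).

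The differences held within slides, each of which holds 4 arrays, for the members that rose at day 5. Within slide the WT difference at day 5 was 2.17 for *C1qa*, 2.03 for *C1qb* and 1.83 to 2.32 for *C1qc*, and 1.23 to 1.24 for *C3*, each over 2 slides. It was 0.80 to 1.04 for *C4b* and 0.85 to 1.15 for *C3ar1*. In KO over 2 slides it was 1.45 to 1.93 for *C1qa*, 1.44 to 1.86 for *C1qb*, 1.29 to 2.05 for *C1qc*, 1.09 to 1.13 for *C3*, 0.46 to 1.07 for *C4b* and 0.75 to 0.89 for *C3ar1*. At day 2 in WT it was 0.88 to 0.99 for *C1qa*, 0.94 to 1.26 for *C1qb*, 1.17 to 2.07 for *C3* and 1.03 to 1.12 for *C4b*, again over 2 slides. At day 2 in KO the 3 slides gave wider ranges, 0.00 to 1.35 for *C1qa*, 0.27 to 1.46 for *C1qb* and 0.87 to 1.98 for *C3*. From day 2 to day 5 the 1 shared WT slide gave 1.28 for *C1qa*, 1.09 for *C1qb* and 1.00 for *C3ar1*, and the 2 shared KO slides gave 1.29 to 1.92, 1.06 to 1.59 and 0.90 to 0.94.

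Deletion of *Nfil3*, which encodes a transcriptional repressor, raises the question whether the complement genes respond differently in KO mice. No member passed in KO against WT in control DRGs, at day 2 or at day 5, where 0, 0.0146 and 0.0109% of all genes were called in either direction. In controls 0 probes passed, so the deleted gene *Nfil3* itself was not called there. Its means were 8.65 in WT and 4.67 in KO controls (SD 0.25 and 2.03), so even a large difference could go without a call in that comparison. The count of members at an unadjusted p under 0.05 was also 0 in each, where 724, 1577 and 1018 of all 41174 probes were under it. The interaction of lesion and genotype called 0 of 9 members, with 0 at an unadjusted p under 0.05 (919 of all probes), and 0% of all genes were called. The C1q genes differed by -0.30, -0.21 and -0.24 (*C1qa*, *C1qb*, *C1qc*) at day 2 and by -0.31, -0.25 and -0.27 at day 5, KO minus WT. For *C1qa* at day 5 the 95% interval was -0.82 to 0.21, for *C1qb* -0.70 to 0.20 and for *C1qc* -0.86 to 0.31, so an equal level and a lower level in KO both lie inside them. In control DRGs these genes differed by 0.03, 0.08 and -0.09, and by -0.12, -0.02 and -0.30 without KO control replicate 4, whose label fields disagree. Without WT day 2 replicate 3 the day 2 differences were -0.27, -0.12 and -0.10. Because the genes share samples and moved together within groups, these 3 values are not independent.

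For *C3* the KO minus WT difference was -0.08 in controls, -0.30 at day 2 and -0.01 at day 5, with a day 5 interval of -0.71 to 0.69. For *C4b* it was 0.05, -0.32 and -0.04, and for *C3ar1* 0.08, -0.24 and -0.17. The day 2 differences of *C3* and *C4b* rested on WT day 2 replicate 3, without which they were 0.14 and -0.03. Without KO control replicate 4 the control difference was -0.25 for *C3* and 0.003 for *C3ar1*. The largest differences at day 5 among members well above background were those of *Cfb*, -0.52 (-1.17 to 0.12, unadjusted p = 0.104), and *Serping1*, -0.35 (-0.72 to 0.01, unadjusted p = 0.0571), and the adjusted p was 1.00 for both. Within slides the KO minus WT difference of *C1qa* ran from -0.41 to 0.76 in controls over 3 slides and from -0.08 to 0.06 at day 2 over 2, and at day 5 the 1 shared slide gave -0.25. For *Cfb* at day 5 that slide gave -0.60 and for *Serping1* -0.33.

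**Figure D4:**
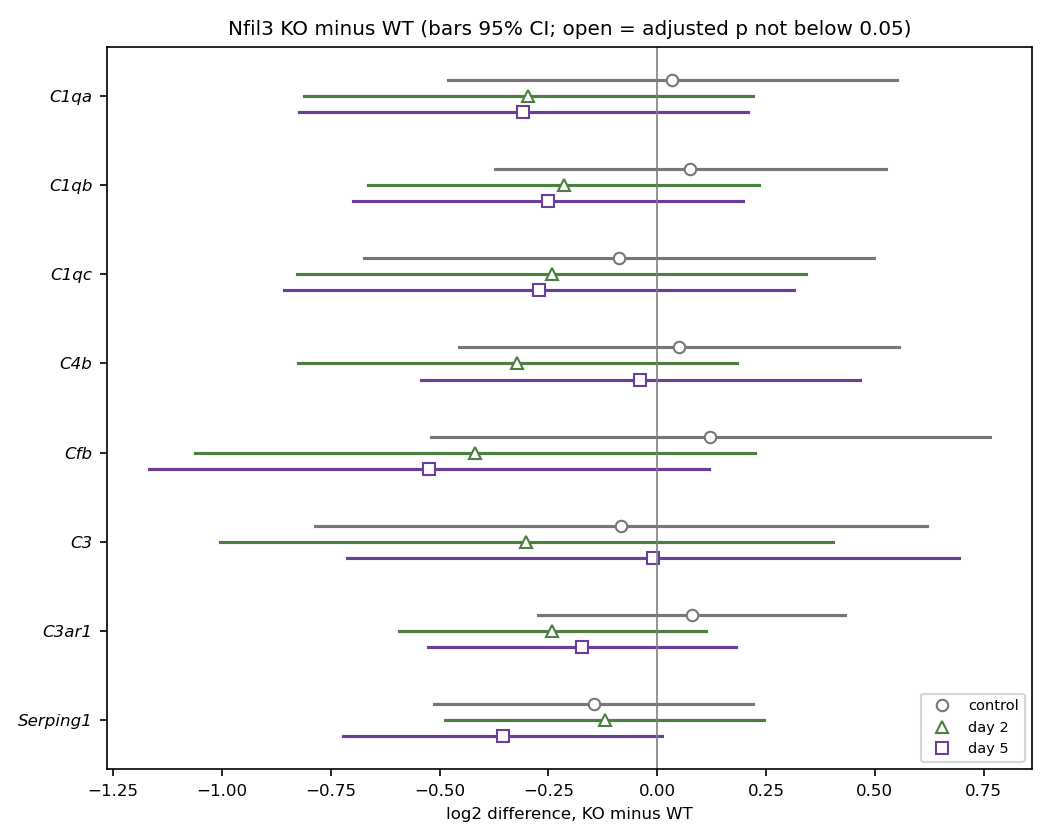
Difference in log2 intensity, KO minus WT (x axis), for 8 members (y axis) in control DRGs (grey circles), at day 2 (green triangles) and at day 5 (purple squares), with 95% confidence intervals. All intervals include 0, and the *Serping1* interval at day 5, -0.72 to 0.01, reaches it by the least. *C5ar1* is left out because it was near background.

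Another 45 complement genes were measured, and in each lesion comparison most did not pass. In WT 5 rose and 2 fell at day 2, where 5.23% of all genes were called higher. At day 5 in WT 9 rose and 2 fell, against 6.41% called higher. In KO 6 rose and 0 fell at day 2, against 5.5%, and 7 rose and 2 fell at day 5, against 6.06%. The median change was 0.13, 0.28, 0.18 and 0.28, and 0 passed in KO against WT. In either direction, 4113 and 5295 of all 41174 probes were called at day 2 and day 5 in WT, and 4494 and 4803 in KO. *C1ra*, *C1s*, *Masp1*, *Cfd*, *Itgax* and the undetected genes of the terminal pathway are named below although their values had been seen, and the others follow the rule for named genes. They were well above background in all 24 samples for 27 genes and in none for 5.

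Of 14 other genes of the classical and lectin pathways 3 rose at day 5 in WT and 2 in KO. *Mbl2*, a mannose-binding lectin, rose by 1.10 and 1.83 at day 2 and day 5 in WT and by 0.98 and 1.98 in KO (adjusted p = 0.00806, 5.17e-05, 0.0163 and 2.09e-05). *Masp2*, a lectin pathway protease, differed by 0.77 at day 5 in WT (adjusted p = 0.0136) and by 0.57 in KO (adjusted p = 0.0796). *C1ra* and *C1s*, which encode the proteases of the C1 complex, differed by 0.45 and 0.66 at day 5 in WT and passed in no comparison (adjusted p = 0.575 and 0.247). *Masp1*, a further lectin pathway protease, rose by 0.67 to 0.84 in all 4 lesion comparisons.

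In the alternative pathway *Cfp*, which encodes properdin, the stabilizer of its C3-cutting enzyme, rose by 1.08 and 1.60 in WT and by 1.11 and 1.36 in KO (adjusted p = 0.000211, 1.17e-06, 0.000152 and 1.13e-05). *Cfd*, factor D, an adipocyte product, differed by 2.15 at day 5 in WT and 3.03 in KO without passing (adjusted p = 0.222 and 0.0671). In the terminal pathway, which builds the membrane attack complex, 0 of 7 genes rose. *C8g* fell by 0.74 and 0.72 on the log2 scale at day 2 and day 5 in WT (adjusted p = 0.0193 and 0.0181). In KO it fell by 0.72 at day 5 (adjusted p = 0.0216). *C7*, *C8a* and *C9* were well above background in no sample.

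Among 15 other regulators *Cfi*, factor I, which inactivates C3b and C4b, rose by 0.72 and 1.16 in WT and by 0.49 and 1.16 in KO (adjusted p = 0.00486, 3.25e-05, 0.0494 and 3.36e-05). *Cd59a*, an inhibitor of the membrane attack complex, rose by 0.56 and 0.67 in WT and by 0.69 at day 5 in KO (adjusted p = 0.00447, 0.000748 and 0.000586). *Cd55*, decay-accelerating factor, fell by 0.87 and 1.22 in WT and by 0.95 at day 5 in KO (adjusted p = 0.00437, 0.00013 and 0.00161). Among 7 other receptors *Itgam*, the alpha chain of complement receptor CR3, rose by 1.38 at day 5 in WT and 1.24 in KO (adjusted p = 0.000101 and 0.000346). *Gpr77*, the alternative C5a receptor, rose by 0.89 and 0.84 at day 5 (adjusted p = 5.24e-05 and 0.000103). *Itgax*, the alpha chain of CR4, differed by 0.76 in WT (adjusted p = 0.00508) and 0.53 in KO (adjusted p = 0.0511).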

How the data were processed

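RNA of whole ganglia was measured on 12 two-channel Agilent 4x44K arrays of 3 slides, a different sample in each channel and 2 samples of each group per dye. Per the file headers, the authors used Feature Extraction software, which gave each spot a foreground and background intensity that was deposited without normalization. The methods name Edwards background correction and quantile normalization, and both were applied here to the mean foreground and median background on the log2 scale. Control spots and outlier spots were removed (417 probe values missing, none in a member), and spots of a probe were averaged.

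R 4.3.3 was used with limma 3.58.1 and statmod 1.5.0. A mean for each group was fitted to all 24 samples, and p-values were adjusted over 41174 probes at a threshold of 0.05. The group of KO control replicate 4 follows its title and source. Per the methods the replicates are independent, but the labels do not tie samples to animals. The members and gene lists were chosen with earlier results of these data known. Named genes are the members, *Nfil3*, *Atf3* and *Sprr1a*, the 3 genes closest to each member by r (not for *C5ar1*, near background), and, among other complement genes that passed in a lesion comparison, those with the 2 largest rises and falls of their list at day 5 in WT. Promoter motifs were chosen after the sequences were seen, and STAT-like (TTCNNNGAA) and IRF-like letters, searched on both strands too, were found in none of the 5 members with a promoter entry. The model was tested on simulated data with independent noise in each sample and differences added to WT day 5 alone. Sharing of arrays was not simulated, so that test says nothing about it. Alternatives varied the background (none, normexp with offset 50, or the processed signals of Feature Extraction scaled at percentile 75), the foreground (median), the normalization (loess, then Aquantile), outlier spots (kept), the probes (averaged per gene, or 29805 probes well above background in 4 or more samples, without *C5ar1*) and the model (an eBayes trend, array as a random block, or dye, slide, replicate number or array partner as a term), and each sample was left out in turn. Leaving out the 4 controls on an array with a lesioned sample was added after seeing the data. The number of arrays limits the precision.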

Additional observations from a re-analysis of the deposited data

Results flagged for a closer look

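Within groups of 4 samples, 66 sets of values of the 11 member probes were screened for a sample far from the other 3, and 3 were found, which is about what chance gives at 1 in 20. *C1qa* was low in WT day 5 replicate 3, at 10.11 against 10.45 to 10.48 in the others. *C1qc* was high in WT day 5 replicate 4, at 11.895 against 11.62 to 11.66. The dim probe of *C3* was low in KO day 5 replicate 3, at 3.004 against 4.12 to 4.19, and it was not well above background in any of these 4 samples. No member passed the test of the interaction between lesion and genotype.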

How the results depend on the processing

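Over all members and comparisons, 2086 of 2168 recomputed values stayed on the same side of the threshold, 55 lost and 27 gained a call, no called value changed sign, and 68 values without a call did. This total includes the many values that passed under no alternative. Calls were lost most often for *C1qc* from day 2 to day 5 in KO (11 of 22 alternatives) and *C1qa* at day 2 in WT (7 of 23). *C1qb* at day 2 in KO and *C3* at day 5 in WT each lost theirs in 6 of 23. The KO minus WT comparisons and the interaction called 0 members under all alternatives. The count of members that rose at day 2 in KO was 1 in place of 2 with slide as a block or with probes averaged, and at day 2 in WT it was 2 in place of 4 without the 4 controls on an array with a lesioned sample, which leaves 2 controls per genotype. With each sample left out in turn the count ran from 3 to 5 at day 2 and 5 to 7 at day 5 in WT, from 1 to 5 and 4 to 6 in KO, and from day 2 to day 5 from 0 to 4 in WT and 2 to 4 in KO. The cause was not tested. With a replicate block the counts were 4 and 6 in WT, 2 and 6 in KO, and 3 and 3 from day 2 to day 5, where *C1qc* in KO lost its call (adjusted p = 0.0653). Same-numbered samples deviated together only weakly (r from -0.0641 to 0.208, median 0.0702), so the numbers were not taken to pair samples. The within-array correlation was 0.266. Levels near background limit *C5ar1* and the dimmer probes of *C3* and *C3ar1*.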

Other observations

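Of 11 genes of the acute phase and of STAT3 signalling, several of them known to be induced together with *C3* in inflamed tissue, 7 rose at day 2 and 6 at day 5 in WT, where 5.23 and 6.41% of all genes were called higher. In KO 7 and 5 rose, against 5.5 and 6.06%. The medians were 1.20, 0.89, 1.06 and 0.83, and *Hp*, *Lcn2*, *Stat3* and *Tnf* passed in no lesion comparison. From day 2 to day 5, 1 gene fell in WT (*Saa3*) and 4 in KO (*Saa3*, *Timp1*, *Il6* and *Serpina3n*). *Timp1*, an inhibitor of metalloproteinases, rose by 3.19 and 2.58 in WT and by 3.10 and 1.81 in KO. *Saa3*, an acute phase protein, rose by 3.07 at day 2 in WT and 2.91 in KO (adjusted p = 1.07e-07 and 2.63e-07), and at day 5 it stood at 0.87 in WT (adjusted p = 0.0323) and 0.58 in KO (adjusted p = 0.196). *Cebpd*, a C/EBP factor, rose by 1.19 and 0.93 in WT and by 1.32 and 0.83 in KO. The genes of this list were named after their values were seen.

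Of 9 interferon response genes 1 rose, *Oas1a* at day 5 in WT (0.85, adjusted p = 0.0259), where 6.41% of all genes were called higher. The list medians lay between -0.06 and 0.10. Neuron markers were lower for 6 of 11 genes at day 2 and 7 at day 5 in WT and for 4 and 8 in KO, with 1 higher at day 5 in each. In either direction, 4113 and 5295 of all 41174 probes were called at day 2 and day 5 in WT. In KO these were 4494 and 4803. At most 1 of 7 Schwann cell markers passed in a lesion comparison (day 2 in WT), and 0 of 6 fibroblast, 0 of 5 endothelial and 0 of 3 red blood cell markers did. Of 6 satellite glia markers 1 rose in each lesion comparison, and 1 fell at day 2 in WT and 2 in KO. Of 5 hepatocyte markers, 1 of which was above background in no sample, 1 rose at day 5 in KO.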
